A study of Homo sapiens with 10 samples.

Results

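The genes described here are 9 enzymes and regulators tied to NADPH-dependent detoxification, chosen by symbol from the 28380 genes in the deposited table of raw counts: NQO1, AKR1B1, AKR1C1, AKR1C2, AKR1C3, PGD, TALDO1, ME1 and OSGIN1. RPE-1 cells, a line of telomerase-immortalized human retinal pigment epithelial cells, were treated in complete medium for 4 h with 25 µM sulforaphane (SFN), an isothiocyanate from cruciferous vegetables, or with its vehicle DMSO. There were 5 replicates of 50000 cells in each group, and both groups came from the one cell line, for which the labels name no genetic change. The methods call the replicates of the study independent but model repeated measures in the sequencing data, and the labels name no separate cultures, so the p-values measure the spread between these samples, part of which may be technical. The series asks which transcriptional programs SFN switches on within hours.

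SFN is best known for releasing the transcription factor NRF2, encoded by NFE2L2, from its inhibitor KEAP1. NRF2 then pairs with a small MAF protein and binds antioxidant response elements in front of genes that reduce quinones, aldehydes and peroxides. The reductases spend NADPH, and several of the enzymes that regenerate NADPH are NRF2 targets too. NQO1 reduces quinones to hydroquinones in a single step, the aldo-keto reductases (AKR) reduce aldehydes and ketones, PGD and TALDO1 work in the pentose phosphate pathway, ME1 is the cytosolic malic enzyme, and OSGIN1 is an oxidative stress-induced growth inhibitor.

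Total counts ranged from 15689294 to 20666692 in DMSO and from 12375860 to 17308706 in SFN. In the text, CPM are counts per 1000000 counts of a library after scaling the libraries by the TMM method, and the fitted change is a log2 fold change of SFN against DMSO from edgeR's quasi-likelihood test, with p-values adjusted by Benjamini-Hochberg over the 13378 genes that had enough counts for a test. DMSO replicate 1 stood apart from the other vehicle libraries. Its mean Spearman correlation with them across genes was 0.935, against 0.979 to 0.982 for the others, and in 35.3% of all tested genes its value lay outside the other DMSO values by more than the 95% limit of Dixon's gap test, against at most 0.583% for any other DMSO library. The cause was not tested, and results are given with and without it. Of 11 markers of retinal pigment epithelium, 6 had enough counts for a test, among them KRT8 and KRT18, with MITF and OTX2 lower in SFN, but the visual cycle genes RPE65, RLBP1 and LRAT had at most 12 counts in any library. TYRP1 and SERPINF1 had at most 2 counts in any library, and PMEL had 7 to 29. BEST1, a chloride channel of mature pigment epithelium, was the exception with 97 to 1244 counts. Whether all of its reads came from that gene was not tested. The 3 blood and endothelial markers in the table, PTPRC, PECAM1 and CDH5, summed to at most 0.56 CPM.

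With all 10 libraries, 0 of the 7 members tested were higher in SFN and 0 were lower at an adjusted p under 0.05 by edgeR's quasi-likelihood test, where 9.07% of all tested genes were higher and 13.9% lower. Unadjusted p-values under 0.05, which 34.6% of all tested genes had, were found for 0 members, and DESeq2 and limma-voom each called 0 members. When limma-voom instead weighted each of the same 10 libraries by its estimated quality, 5 members were higher (NQO1, AKR1B1, TALDO1, ME1 and OSGIN1) and 0 lower. That weighted fit called 3874 of the 13378 tested genes higher and 4041 lower, many more than the main fit. The weight was 0.0568 for DMSO replicate 1 and 0.403 to 2.89 for the others. The weighted fit used TMM scaling, whereas the unweighted limma-voom fit used quantile normalization, so the 2 changes cannot be told apart. By the stricter definition that adds a change above 2-fold, 0 members qualified in either direction, where 2.94% of all tested genes were higher and 5.76% lower. AKR1C1 and AKR1C2 had too few counts for a test. The fitted log2 fold changes of the 7 had a median of 0.28, beside -0.03 over all tested genes. In none of the 7 were the DMSO and SFN libraries separated, while the groups did not overlap in 19.9% of all tested genes. Without DMSO replicate 1, NQO1, AKR1B1, TALDO1 and ME1 rose, which is 4 of 7 beside 22.5% of the 13566 genes then tested, and 0 fell beside 23.5%. The median log2 fold change of the 7 was then 0.48, beside -0.0032 over all genes tested. The 4 genes were also those in which the remaining 4 DMSO and 5 SFN libraries did not overlap, which was so in 36.2% of all genes tested.

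NQO1, the NAD(P)H quinone dehydrogenase most often used to read NRF2 activity, lies on chromosome 16 of GRCh38 from 69706996 to 69726668 on the minus strand, with 6 exons in its canonical transcript. In DMSO replicates 1 to 5 it was at 312, 193, 193, 191 and 190 CPM. In SFN replicates 1 to 5 it was at 286, 288, 276, 256 and 234 CPM. The lowest SFN library thus lay above 4 of the DMSO libraries, which were within 3 CPM of each other, and DMSO replicate 1 lay above every SFN library. The means were 216 ± 53.6 CPM (SD, n = 5) in DMSO and 268 ± 23 CPM (SD, n = 5) in SFN, and the fitted log2 fold change was 0.31 (SE, standard error, 0.15, 95% interval -0.024 to 0.65, edgeR adjusted p = 0.18). Without DMSO replicate 1 the DMSO mean was 192 ± 1.4 CPM (SD, n = 4), the log2 fold change 0.48 (SE 0.08) and the edgeR adjusted p 0.00033, a 1.39-fold increase. In these bulk libraries more RNA per cell and more cells with the RNA cannot be told apart. An antisense long noncoding RNA, ENSG00000261602, shares 575 exonic bases with NQO1 on the opposite strand but had at most 7 counts in a library.

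**Figure D1:**
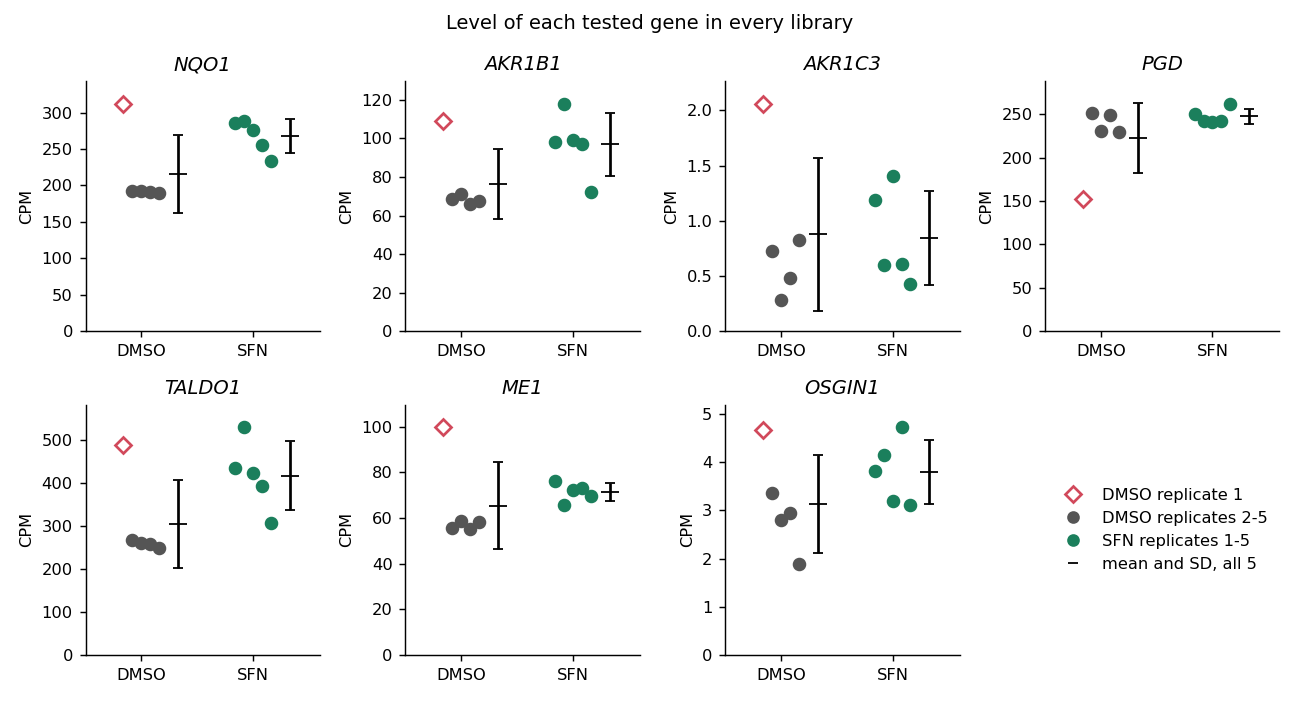
CPM (TMM-scaled counts, linear axes from 0) of the 7 tested genes in each library, with DMSO in grey, SFN in green, DMSO replicate 1 as an open red diamond, and bars for the mean and SD of all 5 replicates. DMSO replicate 1 is the highest DMSO library in 6 of the 7 genes and the lowest for PGD, and the other 4 DMSO libraries lie below all SFN libraries for NQO1, AKR1B1, TALDO1 and ME1.

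AKR1B1, aldose reductase, converts glucose to sorbitol and reduces lipid aldehydes. It lies on chromosome 7 from 134442356 to 134459284 on the minus strand. The DMSO replicates 1 to 5 gave 109, 68.8, 71.1, 66.2 and 67.4 CPM, and the SFN replicates 98.1, 118, 99.4, 97.3 and 72 CPM. DMSO replicate 1 lay above 4 of the SFN libraries and below SFN replicate 2, and the other 4 DMSO libraries lay below all of SFN, with SFN replicate 5 closest to them. The log2 fold change was 0.34 (SE 0.17, edgeR adjusted p = 0.18) with all libraries and 0.50 (SE 0.11, edgeR adjusted p = 0.003) without DMSO replicate 1. By mean, AKR1B1 went from 76.5 ± 18.4 to 97 ± 16.5 CPM (SD, n = 5 each).

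The AKR1C enzymes, which reduce steroids, prostaglandins and lipid aldehydes, sit side by side on chromosome 10 and are among the genes most strongly tied to NRF2 in other human cells. AKR1C1 spans 4963253 to 4983283 on the plus strand, AKR1C2 4987775 to 5018031 on the minus strand and AKR1C3 5035354 to 5107686 on the plus strand. Their canonical coding sequences, each of 972 bases, are close: AKR1C1 and AKR1C2 are 98% identical and differ at 19 bases, while AKR1C3 is 91.5% identical to AKR1C1. The next-to-last coding exon, of 83 bases, is printed for each gene 5′ to 3′ (GENCODE 44 transcripts, GRCh38), with capitals at positions where they are not all alike.
AKR1C1, chr10:4975851-4975933, plus strand: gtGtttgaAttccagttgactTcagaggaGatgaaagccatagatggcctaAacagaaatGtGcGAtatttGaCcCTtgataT
AKR1C2, chr10:4991831-4991913, minus strand: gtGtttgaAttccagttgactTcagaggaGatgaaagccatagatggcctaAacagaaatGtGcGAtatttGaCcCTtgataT
AKR1C3, chr10:5105595-5105677, plus strand: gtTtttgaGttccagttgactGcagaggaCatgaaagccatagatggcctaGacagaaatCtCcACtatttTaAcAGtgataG
In this exon AKR1C1 and AKR1C2 differ at 0 bases and AKR1C3 differs from either at 14. The study's methods name QuantSeq, which reads mainly the 3′ end of transcripts, whereas the labels name standard Illumina preparation. The exon therefore shows only how alike the genes are at this place, and where their reads fell was not tested. Over the whole coding sequence of 972 bases, AKR1C1 differs from AKR1C2 at 19 bases and from AKR1C3 at 83. How reads that fit more than one gene were counted is not given in the sources used here.

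Hardly any reads were given to these genes. AKR1C1 had 0 counts in each of the 5 DMSO libraries and 1, 3, 0, 1 and 0 counts in SFN replicates 1 to 5. AKR1C2 had 1 count in DMSO replicate 5 and 0 in the other 9 libraries. With 86908717 counts in the DMSO libraries together, a count of 0 for AKR1C1 allows a level of up to 0.035 CPM, and 0 of 72865637 counts in SFN allows up to 0.041 CPM for AKR1C2, limits that cover counting error only. No fold change is given for either gene. AKR1C3, which also acts as a prostaglandin F synthase, had 33, 16, 5, 8 and 14 counts in DMSO and 20, 7, 19, 9 and 6 in SFN. These counts overlap throughout, and the log2 fold change was -0.02 (SE 0.52, 95% interval -1.2 to 1.1, edgeR adjusted p = 0.98), an interval that spans a 2-fold change in either direction. It was 0.54 (SE 0.43, edgeR adjusted p = 0.32) without DMSO replicate 1.

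**Figure D2:**
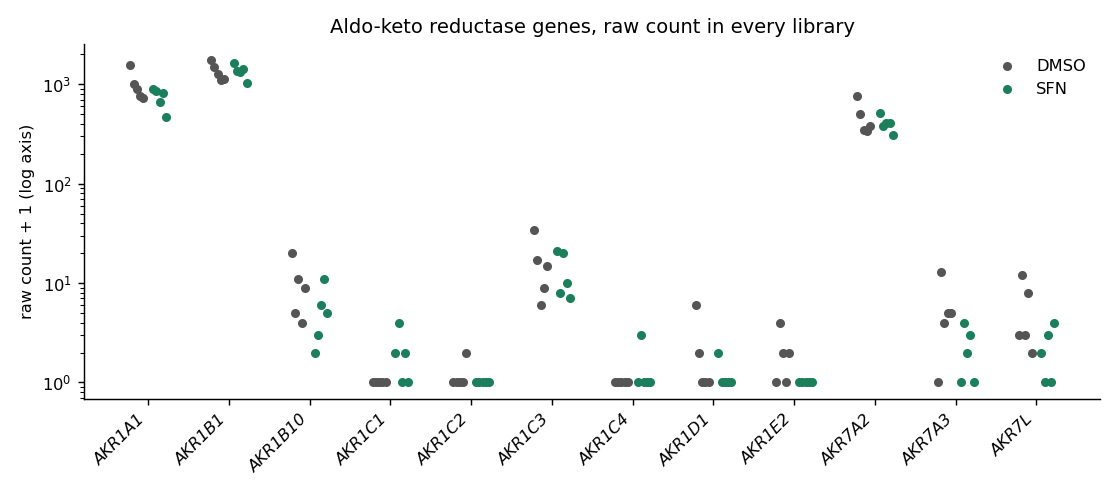
Raw counts plus 1 (log axis) of 12 aldo-keto reductase genes in every DMSO (grey) and SFN (green) library. AKR1A1, AKR1B1 and AKR7A2 have at least 307 counts in every library, AKR1C3 has 5 to 33, and AKR1C1, AKR1C2 and AKR1C4 have at most 3.

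The wider list of quinone, aldehyde and carbonyl reductases had 15 genes besides the members. Of these 14 were in the table and 8 could be tested: NQO2, CBR1, CBR3, CBR4, DHRS4, AKR1A1, AKR7A2 and PTGR1. By edgeR's quasi-likelihood test 0 were higher and 0 lower, with 0 and 0 before adjustment of the p-values and 0 by DESeq2 or by limma-voom without quality weights, and their median log2 fold change was -0.08. With DMSO replicate 1 left out, 3 of the 8 rose and 0 fell, beside 22.5% and 23.5% of all genes then tested. The 3 were AKR7A2 (log2 fold change 0.42), DHRS4 (0.46) and PTGR1 (0.40). AKR1B10, another aldehyde reductase linked to NRF2, had between 1 and 19 counts in a library and was not tested.

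PGD, 6-phosphogluconate dehydrogenase, makes NADPH in the oxidative branch of the pentose phosphate pathway. It lies on chromosome 1 from 10398592 to 10420511 on the plus strand. Its level was 152, 251, 231, 249 and 229 CPM in DMSO replicates 1 to 5 and 250, 242, 241, 242 and 262 CPM in SFN replicates 1 to 5. Here DMSO replicate 1 was the low library, and the other 4 overlapped with SFN. The log2 fold change was 0.15 (SE 0.14, edgeR adjusted p = 0.48) with all libraries. It was 0.04 without DMSO replicate 1 (SE 0.071, edgeR adjusted p = 0.69). Its sign without that library turned with the scaling, being -0.093 with library size only.

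TALDO1, transaldolase, moves carbon between sugar phosphates in the nonoxidative branch and so links the pathway back to glycolysis. It lies on chromosome 11 from 747415 to 765012 on the plus strand. DMSO replicates 1 to 5 were at 489, 268, 260, 258 and 249 CPM, and SFN replicates 1 to 5 at 434, 529, 423, 392 and 306 CPM. DMSO replicate 1 exceeded every SFN library but replicate 2, whereas the other 4 DMSO libraries lay below all of SFN. TALDO1 had the largest fitted log2 fold change of the 7 genes with all libraries, 0.45 (SE 0.21, 95% interval -0.0077 to 0.91, edgeR adjusted p = 0.15). It was also the largest without DMSO replicate 1, where the log2 fold change was 0.68 (SE 0.12, edgeR adjusted p = 0.00052), a 1.6-fold increase from 259 ± 7.8 CPM (SD, n = 4) to 417 ± 80.4 CPM (SD, n = 5).

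The list of pentose phosphate genes held 6 others, of which H6PD, RPE, RPIA and TKT were in the table and tested, and PGLS and TKTL1 were not analysed here. By edgeR's quasi-likelihood test 0 of the 4 were higher and 0 lower, with 0 and 1 before adjustment of the p-values, and their median log2 fold change was -0.16. The log2 fold change was 0.09 for the transketolase TKT, -0.08 for H6PD, -0.24 for the epimerase RPE and -0.43 for the isomerase RPIA. RPE did not overlap between the groups (edgeR unadjusted p = 0.026), which was so in 19.9% of all tested genes. Without DMSO replicate 1 RPE fell (log2 fold change -0.24, edgeR adjusted p = 0.032). DESeq2 and limma-voom each called 1 gene of this list lower with all libraries.

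ME1 makes cytosolic NADPH by turning malate into pyruvate. It lies on chromosome 6 from 83210402 to 83431051 on the minus strand. The 9-letter core TGACNNNGC of the antioxidant response element, searched on both strands from 250 bases before to 50 bases after each start in the RefSeq promoters, was found for ME1 and PGD but in none of the windows of the other 7 members, and in 13.3% of all 35116 promoter windows. This window is short and its letters say nothing of elements farther away. Of 2 matches for ME1, the one that lies before the start, by 128 bases, is shown. It holds the core in its forward form, in capitals (RefSeq, GRCh38.p14, 5′ to 3′ on the minus strand).
ME1, chr6:83431155-83431213: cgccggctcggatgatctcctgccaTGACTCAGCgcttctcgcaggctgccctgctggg
In DMSO replicates 1 to 5 ME1 was at 99.7, 55.6, 58.6, 55.2 and 58.1 CPM, and in SFN replicates 1 to 5 at 76.3, 65.6, 72.5, 73 and 69.8 CPM. DMSO replicate 1 was above all other libraries, and the rest of DMSO was below all of SFN. The log2 fold change was 0.13 (SE 0.17, edgeR adjusted p = 0.64) and, without DMSO replicate 1, 0.32 (SE 0.078, edgeR adjusted p = 0.0041).

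Of 13 other genes listed for the supply of NADPH or its precursors, 11 were tested. By edgeR's quasi-likelihood test 1 was higher and 0 lower, beside 9.07% and 13.9% of all tested genes. The counts were the same before adjustment of the p-values. The median log2 fold change of these 11 genes was 0.07. The gene that rose was MTHFD2, a mitochondrial dehydrogenase of folate metabolism, from 177 ± 13.7 to 395 ± 22.3 CPM (SD, n = 5 each; log2 fold change 1.16, SE 0.098, edgeR adjusted p = 8.9e-06). Every SFN library exceeded every DMSO library, and the log2 fold change was 1.12 without DMSO replicate 1, where IDH2 rose as well (0.27, edgeR adjusted p = 0.043). The cytosolic isocitrate dehydrogenase IDH1 had a log2 fold change of -0.08 and the NAD kinase NADK, which makes NADP from NAD, one of 0.17, neither past the threshold. Whether MTHFD2 works with NAD or NADP in these cells, and so adds to NADPH, was not tested.

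OSGIN1 lies on chromosome 16 from 83931311 to 83966332 on the plus strand and overlaps MLYCD on the same strand, though no bases of their canonical exons are shared. Its counts were low, with 75, 74, 50, 49 and 32 counts in DMSO replicates 1 to 5 and 64, 48, 43, 70 and 44 in SFN. In CPM the DMSO libraries ran from 1.89 to 4.67 and the SFN libraries from 3.11 to 4.72, with much overlap. Its log2 fold change was 0.28 (SE 0.24, 95% interval -0.24 to 0.79, edgeR adjusted p = 0.46), and 0.45 (SE 0.20, edgeR adjusted p = 0.084) without DMSO replicate 1. Its relative OSGIN2 was higher in every SFN library than in any DMSO library and rose from 42.7 ± 6.17 to 71.5 ± 10.3 CPM (SD, n = 5 each; log2 fold change 0.74, SE 0.14, edgeR adjusted p = 0.0025).

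**Figure D3:**
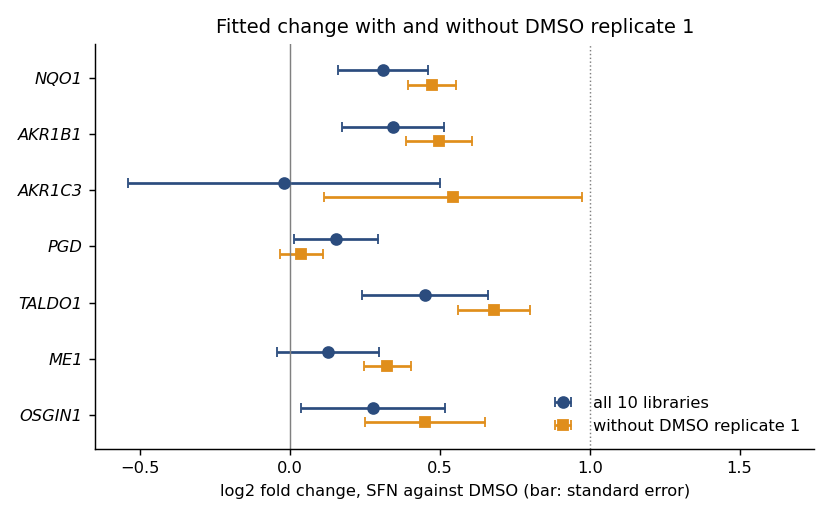
Fitted log2 fold change of SFN against DMSO (points) with its standard error (bars) for the 7 tested genes, with all 10 libraries (blue circles) and without DMSO replicate 1 (orange squares); the dotted line marks a 2-fold increase. Leaving the library out moves every gene but PGD upward, NQO1 from 0.31 to 0.48 and TALDO1 from 0.45 to 0.68, and none reaches 2-fold.

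The genes that encode NRF2, its partners and its inhibitors were read from the same fit. Of 11 genes for NRF2 and its regulators, all tested, 6 rose and 1 fell by edgeR's quasi-likelihood test, beside 9.07% and 13.9% of all tested genes. MAFG, a small MAF partner of NRF2, had the largest increase, from 58 ± 12.4 to 154 ± 9.22 CPM (SD, n = 5 each; log2 fold change 1.40, edgeR adjusted p = 2.8e-05). BACH1, a repressor that competes for antioxidant response elements, rose by a log2 fold change of 1.13, MAFF by 1.12 and NFE2L2 by 0.69. BTRC, a subunit of a ubiquitin ligase that targets NRF2, fell (log2 fold change -0.79, edgeR adjusted p = 0.023), and its DMSO replicate 1 was at 19.6 CPM beside 44.4 to 46.7 CPM in the other DMSO libraries. Without DMSO replicate 1 the log2 fold change of BTRC was -0.97 (edgeR adjusted p = 1.4e-05). BTRC was no longer past the threshold when any one of 7 other libraries was left out (DMSO replicates 2 to 5 and SFN replicates 1 to 3). MAFK and the autophagy receptor SQSTM1 were the other genes that rose, and KEAP1 had a log2 fold change of -0.21 that did not pass the test.

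Among 20 other NRF2 targets, all tested, 6 rose and 0 fell by edgeR's quasi-likelihood test, beside 9.07% and 13.9% of all tested genes. Before adjustment of the p-values the counts were 7 and 0, and the median log2 fold change was 0.35. The 5 largest increases were in the conjugate exporter ABCC2 (1.63, from 4 to 17 counts in a DMSO library to 15 to 32 in an SFN library), the cystine transporter SLC7A11 (1.61), heme oxygenase HMOX1 (1.42), the glutathione synthesis subunit GCLM (1.30) and ferritin light chain FTL (0.68), and EPHX1 also rose. FTL was close to the threshold (edgeR adjusted p = 0.049). Leaving out DMSO replicate 1, 13 of the 20 rose and 1, ABCC1, fell, beside 22.5% and 23.5% of all genes then tested. TXNRD1, thioredoxin reductase, was among the genes added (log2 fold change 0.61 and adjusted p = 0.058 with all libraries, 0.45 and 0.0071 without).

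**Figure D4:**
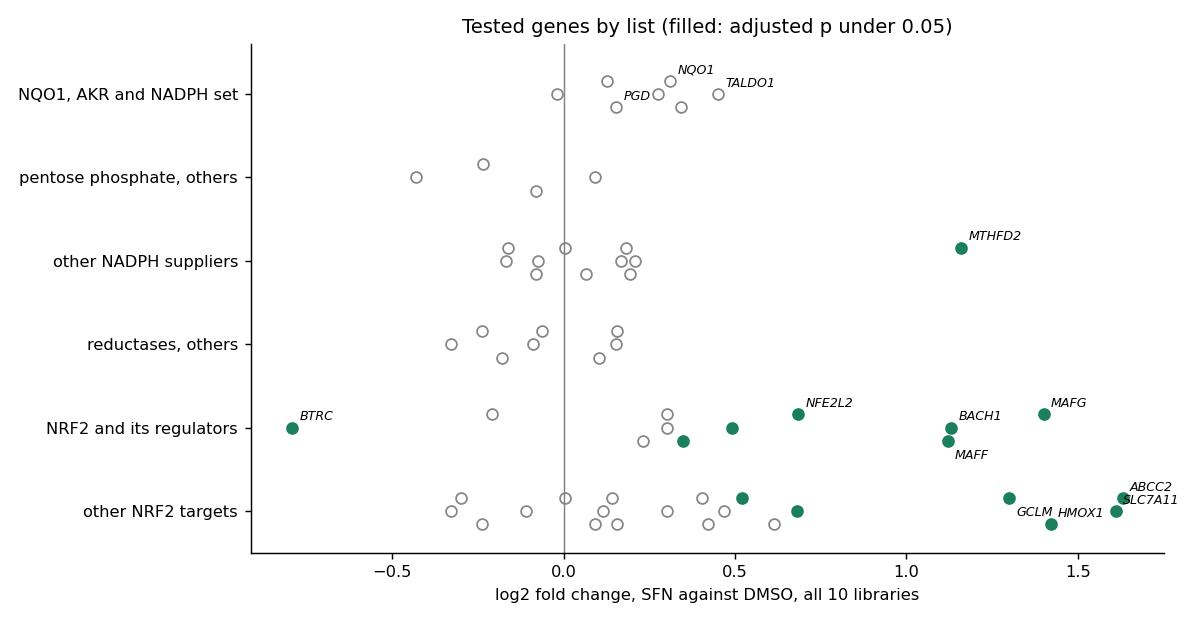
Log2 fold change of SFN against DMSO for every tested gene of 6 lists, from all 10 libraries, with genes at an adjusted p under 0.05 filled; members appear only in the top line and a gene that is in 2 lists is drawn in both. The 7 members lie between -0.02 and 0.45 and none is filled. In the list of NRF2 and its regulators 6 genes are filled to the right of 0 and 1, BTRC, to the left. Over all tested genes 9.07% were higher and 13.9% lower.

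With all libraries the log2 fold change of NQO1, 0.31, was close to the median of these 20 targets, 0.35, and without DMSO replicate 1 the values were 0.48 and 0.44.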

How the data were processed

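RNA of RPE-1 cells, 5 DMSO and 5 SFN replicates, was sequenced with Lexogen QuantSeq per the study's methods, whereas the labels name standard Illumina preparation. The deposited values are raw counts per gene, which the authors made from the reads; the submitters' processing notes name FastQC, STAR, featureCounts and edgeR and the builds hg38 and GRCh38. Strand setting, molecular identifiers and annotation release are not given in the sources used here.

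Counts were analysed in R 4.3.3 with edgeR 4.0.16 (filterByExpr, TMM, glmQLFit and glmQLFTest, Benjamini-Hochberg over all tested genes, threshold 0.05); DESeq2 1.42.0 and limma 3.58.1 were alternatives. Errors of fold changes are the log2 fold change divided by the root of F. The fit was tested on simulated data in which no library stood apart, so that test says nothing of the effect of DMSO replicate 1. Positions are from GENCODE 44 and promoters from RefSeq, in which all 9 genes matched. Total counts of 12375860 to 20666692 set the precision, and floors of 3 counts cover counting error only.

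The 9 genes and all lists were chosen with earlier results of these data known. Named genes were the 9, the pentose phosphate genes, and from each other list up to 5 genes past the threshold by size of change. AKR1A1, AKR1B10, AKR7A2, CBR1, NQO2, DHRS4, PTGR1, IDH1, IDH2, NADK, KEAP1, MAFK, SQSTM1, EPHX1, TXNRD1 and ABCC1 were named after their values were seen. A gene of the lists is not reported here. The genes most like a member in profile were to be named only for members past the threshold, and 0 were with all libraries. The planned ratio of AKR1C3 to AKR1C1 plus AKR1C2 could not be computed, since the denominator was 0 in 6 of 10 libraries. Leaving out DMSO replicate 1 alone was one of the alternative fits set out at the start; its combinations with other settings and the sample quality weights were chosen after seeing the data.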

Additional observations from a re-analysis of the deposited data

Results flagged for a closer look

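DMSO replicate 1 lay far from the other 4 DMSO libraries in 5 of the 7 genes tested. Its gap to the nearest DMSO library, as a share of the whole DMSO range, was 0.98 for NQO1, 0.89 for AKR1B1, 0.92 for TALDO1 and 0.92 for ME1, where it was the highest, and 0.77 for PGD, where it was the lowest. The 95% limit of Dixon's test for 5 samples is 0.71, and among the 14 groups examined chance alone would mark about 1 in 20. That rate takes no account of a library that stands apart across genes. DMSO replicate 1 passed the same limit in 35.3% of all tested genes, so the 5 marks are not independent of each other. On the log2 CPM scale DMSO replicate 1 differed from the mean of the other DMSO libraries by 0.70 for NQO1, 0.67 for AKR1B1, 0.92 for TALDO1, 0.81 for ME1 and -0.66 for PGD. The cause was not tested.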

How the results depend on the processing

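With DMSO replicate 1 in the fit and no quality weights, 0 members passed the threshold under any of 19 settings, the reported one included. Leaving out DMSO replicate 1 gave 4 members higher, and leaving out any other single library gave 0. A further change beside leaving out DMSO replicate 1 gave 4 (RLE), 3 (library size only), 4 (DESeq2), 5 (limma-voom) and 4 (without SFN replicate 2 as well). Sample quality weights on all 10 libraries gave 5, with a log2 fold change of 0.44 and adjusted p = 0.045 for OSGIN1 by limma-voom. ME1 without DMSO replicate 1 was not past the threshold with library size only (edgeR adjusted p = 0.064).

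Over all tested genes, 1214 higher and 1862 lower calls became 906 to 3058 and 1470 to 3193 with a single library left out, and 3874 and 4041 with quality weights. They were, without DMSO replicate 1, 3058 and 3193, with RLE added 3236 and 3051, with library size only 2042 and 4342, with DESeq2 3429 and 3176, with limma-voom 3154 and 3113, and without SFN replicate 2 as well 3106 and 3273. Library size only thus moved the split toward lower calls.

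In the pentose phosphate list, DESeq2, limma-voom and quality weights each gave 1 lower, and leaving out a single library gave 0 to 1 lower; without DMSO replicate 1 and with library size only it was 2. For the other NADPH suppliers leaving out a single library gave 1 to 2 higher and 0 lower, and quality weights 5 higher and 2 lower; without DMSO replicate 1, library size only gave 3 lower, and DESeq2 and limma-voom 1 each. The reductases had 0 to 3 higher with a single library left out, 2 without DMSO replicate 1 with library size only, and 3 with quality weights. The NRF2 regulators had 0 to 1 lower, and the other NRF2 targets 5 to 13 higher and 0 to 1 lower, with a single library left out. Without DMSO replicate 1 and with library size only or limma-voom, the targets had 12 higher and 2 lower, and with quality weights on all libraries 13 and 1. The cause of these shifts was not tested.

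The log2 fold change of AKR1C3 turned positive with limma-voom (0.19), with the replicate block (0.05), without DMSO replicate 1 (0.54), without SFN replicate 2 (0.082), 4 (0.088) or 5 (0.15) and with quality weights (0.65), and ranged from -0.27 (without SFN replicate 3) to 0.54 over the fits with a single library left out. In fits without DMSO replicate 1 it was 0.56 with RLE, 0.41 with library size only, 0.57 with DESeq2, 0.51 with limma-voom and 0.64 without SFN replicate 2 as well. PGD turned negative without DMSO replicate 1 with library size only (-0.093) and with limma-voom (-0.095). Same-numbered samples did not deviate together in every pair (correlations of 0.0496, -0.327, -0.0763, 0.0448 and 0.555). With so few pairs and DMSO replicate 1 standing apart, these values cannot decide whether the numbers pair the samples. With the replicate block 0 members were higher and 0 lower. At 61 to 76 AKR1C3 counts a group and 0 to 5 AKR1C1 or AKR1C2 counts, depth limits what these genes can show.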

Other observations

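Other reductases were also high in DMSO replicate 1, which was the highest DMSO library in 40.5% of all tested genes. AKR1A1, which reduces aldehydes, was at 97.3 CPM there and at 43 to 50.4 CPM in the other DMSO libraries. CBR1, a carbonyl reductase, was at 150 CPM beside 83 to 93 CPM, and NQO2, the relative of NQO1, was at 31.9 CPM beside 12 to 16 CPM. SFN replicates showed an order of their own in 3 of the 7 genes: SFN replicate 2 was the highest and SFN replicate 5 the lowest for AKR1B1, NQO1 and TALDO1, a pattern found in 21.4% of all tested genes.

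The genes in which DMSO replicate 1 was the highest DMSO library, 40.5% of all tested, had a median canonical transcript length of 2050 bases, beside 3173 bases over all tested genes. Those in which it was the lowest, 44.5% of all tested and PGD among them, had a median of 4482 bases. The genes with SFN replicate 2 highest and SFN replicate 5 lowest had a median of 1778 bases. These lengths are given as values, and their part in the results was not tested.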
